A study of Mus musculus with 35 samples.

Results

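Heat shock genes encode molecular chaperones, the proteins that bind other proteins while these fold, refold or are handed to degradation. The 10 genes described here, chosen as a fixed list by name, were the HSP70 genes Hspa1a, Hspa1b and Hspa8, the HSP110 gene Hsph1, the HSP90 genes Hsp90aa1 and Hsp90ab1, the J-domain gene Dnajb1, the small heat shock gene Hspb1 and the mitochondrial chaperonin genes Hspd1 and Hspe1, out of 24421 genes counted in each library. Their RNA was followed through all 35 RNA-seq libraries of a study of NELFB, a subunit of the negative elongation factor NELF, in immortalized mouse embryonic fibroblasts (iMEFs) of genotype Nelfb flox/-, in which adenoviral Cre removes the only intact Nelfb allele. The populations carried an empty vector (EV), wild-type NELFB (WT), MT194, MT486 or DMT, which joins the changes of MT194 and MT486, all in pLenti. Each was harvested 7 days after Ad-Cre-GFP (here Ad-Cre) or Ad-GFP, with 2 replicates in each of the 10 groups. The stable clones were each grown from a single cell after Ad-Cre, 3 each with pLenti-WT-NELFB (WT), pLenti-MT194, pLenti-MT486, pBabe-WT-ATG-NELFB (WT(N48)) or pBabe-delta-C60 (Δ-C60). By the methods, the pLenti proteins carry a flag tag and are driven by a viral promoter. In the study's co-immunoprecipitations MT194 no longer bound NELFA and NELFC, and MT486 no longer bound NELFE. Δ-C60 lacks the C-terminal residues of NELFB. All 20 populations come from a single cell line, so the groups differ in construct and virus and not in the animal of origin.

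As background, NELF holds RNA polymerase II shortly after it has begun a transcript, a step known as promoter-proximal pausing, and the HSP70 genes are the classic genes at which paused polymerase was found. On heat or other stress that leaves proteins misfolded, heat shock factor HSF1 forms trimers, binds heat shock elements (inverted repeats of the unit GAA) and releases the paused polymerase into a burst of transcription. HSPA8, HSP90AB1 and the mitochondrial pair HSPD1 and HSPE1 also serve unstressed cells, whereas HSPA1A and HSPA1B are the strongly inducible cytosolic HSP70 proteins.

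Hspa1a and Hspa1b are neighbouring copies on chromosome 17 of mm10, each a single exon on the minus strand, at 34969190 to 34972156 and 34956436 to 34959238. The 250 bases before their start sites (RefSeq, GRCm38.p6) are shown because Hspa1b had the largest change of the members after Ad-Cre in EV, MT194, MT486 and DMT (not in WT) and its copy can be told from it only in part. Capitals mark an inverted pair of heat shock units, GAANNTTC or TTCNNGAA.
Hspa1a, chr17:34972157-34972406, minus strand: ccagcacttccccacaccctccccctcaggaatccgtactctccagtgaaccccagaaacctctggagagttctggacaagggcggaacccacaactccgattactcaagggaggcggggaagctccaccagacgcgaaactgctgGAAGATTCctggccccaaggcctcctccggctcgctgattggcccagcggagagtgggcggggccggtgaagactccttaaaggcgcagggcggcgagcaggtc
Hspa1b, chr17:34959239-34959488, minus strand: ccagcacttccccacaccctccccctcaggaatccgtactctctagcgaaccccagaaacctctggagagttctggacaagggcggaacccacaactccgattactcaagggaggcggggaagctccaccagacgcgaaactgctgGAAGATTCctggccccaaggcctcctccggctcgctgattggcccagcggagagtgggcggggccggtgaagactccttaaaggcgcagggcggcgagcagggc
The 2 stretches differ at 3 of 250 bases, C44T, T47C and T249G, written with the Hspa1a base first and counted from 1 at the 5′ end of the printed strand. Both hold GAAGATTC 104 to 97 bases before the start, and neither holds a 3-unit form (GAA, TTC and GAA, or TTC, GAA and TTC, with any 2 bases between units) or the TATA box letters TATAAA on either strand. The search took exact letters only. In both, gaa and tgc stand before the pair at the same spacing, and tgc differs from TTC in 1 letter.

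Promoters of 7 of the 10 genes were in the RefSeq table; Hspa8, Hsp90aa1 and Hsp90ab1 were not. The next stretches of 30 bases are shown to set the heat shock letters of Hsph1, which was called with Hspa1b after Ad-Cre, beside those of Hspe1 and Hspd1, which were not. Capitals mark the heat shock units again.
Hsph1, chr5:149636351-149636380, minus strand: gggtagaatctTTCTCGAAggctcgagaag
Hspe1, chr1:55088053-55088082, plus strand: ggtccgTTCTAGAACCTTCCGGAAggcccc
Hspd1, chr1:55088053-55088082, minus strand: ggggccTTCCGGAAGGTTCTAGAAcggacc
Hspd1 and Hspe1 lie head to head on chromosome 1, at 55077835 to 55088243 and 55088132 to 55091307, so the same 18 bases of heat shock units, read on opposite strands, stand before a start of each. They hold both 3-unit forms, which overlap, and lie 89 to 72 bases before the start of Hspe1 and 144 to 127 bases before the second of the Hspd1 starts in the table. The Hsph1 stretch holds 1 pair of units by exact letters, 33 to 26 bases before its first RefSeq start, while GENCODE begins the gene further upstream, inside this stretch. After the Hsph1 pair, ctc and gaa follow at the same spacing, and ctc differs from TTC in 1 letter. Over all 32851 RefSeq promoter windows of 250 bases, read on both strands, 0.466% hold a 3-unit form, 12.8% hold a pair of units and 12.4% hold TATAAA. Dnajb1 and the first Hspd1 start had none of these letters, and the Hspb1 window had 2 pairs of units. A match says only that the letters are there, and chromatin binding was not analysed here. Units with a changed letter were not searched for, so a missing form does not exclude a longer element.

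Sequence shared between genes also bears on what could be counted. The reads were 50 bases long, and reads that matched more than one place equally well fall under the mapping quality limit of the methods and were not counted. Of the 2754 windows of 50 bases in the Hspa1b transcript, 62.3% occur letter for letter in another annotated transcript, all of them in Hspa1a, and of the 2918 in Hspa1a 66.3% do. The values of Hspa1a and Hspa1b therefore rest mainly on windows that are not shared, 983 and 1038 by this measure. It compares transcripts by exact letters and not places in the genome. Windows of genes annotated over the same bases, as where Hspd1 and Hspe1 overlap, thus also count as shared, and nearly identical windows do not. Transcripts of other annotated genes also share windows with Hspa8 (74.8%, chromosome 9, 40800984 to 40810087, led by Gm15459), Hsp90aa1 (58.5%, chromosome 12, 110690605 to 110702728), Hspb1 (51.6%, chromosome 5, 135887919 to 135889563), and of Hspd1 and Hspe1 (44.8% each). Hsp90ab1 (4.49%, chromosome 17, 45567775 to 45573271), Dnajb1 (0.441%, chromosome 8, 83608193 to 83612653) and Hsph1 (0%, chromosome 5, 149614287 to 149636376) share little. Windows found at more than one place in the genome lower the counted level of a gene in every library, so the levels of these genes are probably underestimates.

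**Figure D1:**
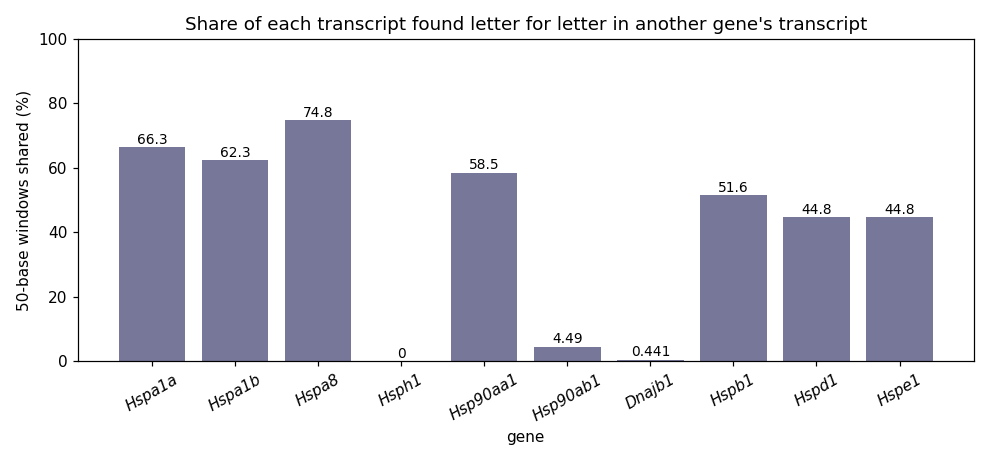
Bars give, for each of the 10 genes, the percentage of 50-base windows of its longest protein-coding transcript (GENCODE, mm10) that also occur letter for letter in a transcript of another gene, on an axis from 0 to 100%. Hspa8 has the highest share, 74.8%, and Hsph1 has none.

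Reads on genes numbered 17969149 to 29080007 per population library and 18413284 to 27816723 per clone library. Of 12 fibroblast markers, 11 averaged at least 1 CPM (counts relative to the TMM-normalized library size) in the populations and 10 in the clones. Thy1 was below 1 CPM in both sets and Lum in the clones. Their summed level was 21600 to 46300 CPM per population, higher in replicate 2 than in replicate 1 in every group, and 7730 to 26600 CPM per clone, led by Fn1. All 7 epithelial and all 5 endothelial markers averaged below 1 CPM in both sets, as did 5 of 6 blood cell markers (all but Cd68, at 3.24 and 1.94 CPM) and 4 of 5 neural markers (all but Tubb3, at 4.67 and 22.5 CPM).

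Nelfb itself was read first as a check on the labels. In the EV populations it had 46.1 and 39.5 CPM with Ad-GFP and 7.97 and 5.46 CPM with Ad-Cre, a log2 fold change of −2.67 (SE 0.22, edgeR quasi-likelihood test, adjusted p = 2.53e-05). With Ad-Cre it had 75.9 and 60.5 CPM in WT, 104 and 119 in MT194, 116 and 128 in MT486 and 169 and 208 in DMT, where reads of the construct and of the gene cannot be told apart. All Ad-Cre populations with a construct thus held more Nelfb RNA than EV-Cre, and those of DMT held the most, 2.79-fold that of DMT with Ad-GFP (adjusted p = 0.000555). In the clones, clones 1 and 3 under the WT label held 10.3 and 15.5 CPM of Nelfb against 109 CPM in clone 2 and 56.3 to 247 in the 12 other clones. Those 2 libraries go against their label, and the comparisons with WT clones were also made without them, where the 1 remaining library is assumed to vary like the clones of the other groups and a missing call carries no information.

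Levels differed widely among the 10 genes. As CPM per kilobase of annotated exon, a scale that allows for gene length but not for the unequal shares of shared windows given above, the medians over the 20 populations ran from Hsp90ab1 (532) through Hspa8 (46.5), Hspd1 (41.3), Hsp90aa1 (24.7), Hspe1 (21.1), Dnajb1 (18.6), Hsph1 (12.4) and Hspa1b (6.89) to Hspa1a (0.704). The order could differ if the windows that were not counted were allowed for, for Hspa1b beside Hsph1 among others. How far reads across exon junctions were counted was not measured either, and Hspa1a and Hspa1b have a single exon. The ranges over libraries of neighbours in this order overlap, apart from Hsp90ab1 (440 to 634), which stood above Hspa8 (37 to 53.9), and Hspa1b (5.53 to 22.2), which stood above Hspa1a (0.479 to 1.05). In the 15 clones the order was the same except that Hspd1 came before Hspa8 and Hspe1 before Hsp90aa1, with Hsp90ab1 (854 to 1920) again first and Hspa1a (0.0418 to 1.16) next to last. The 2 sets were normalized separately, so values are compared within a set only. Hspb1, the small heat shock protein HSP25 of the mouse, had 0 to 2 reads in each of the 35 libraries, 7 reads in all populations together and 10 in all clones. A count of 0 allows up to 0.167 CPM in the smallest population library and 0.163 CPM in the smallest clone library, for counting error only. Hspb1 did not reach the filter on low counts, and the other 9 members passed it in both sets.

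The first question of the design was what loss of NELFB does to the cells, read from EV with Ad-Cre against Ad-GFP. Here 4 of the 9 members tested rose and none fell, and the median log2 fold change of the 9 was 0.69, against 0.00 over all 13805 genes tested, of which 5.84% were called higher (edgeR, Benjamini-Hochberg adjusted p under 0.05 and log2 fold change over 0.5, over all genes). The rise was largest in the inducible HSP70 gene Hspa1b and next in Hsph1, whose HSP110 protein exchanges the nucleotide of HSP70. The constitutive genes Hspa8, Hsp90ab1, Hspd1 and Hspe1 were not called.

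Hspa1b had 15.5 and 18.6 CPM in EV with Ad-GFP and 62.1 and 45.7 CPM with Ad-Cre, so that its groups did not overlap, and its log2 fold change was 1.66 (SE 0.15, 3.16-fold, adjusted p = 4.18e-05). Hsph1 had 80.3 and 81.8 CPM with Ad-GFP and 184 and 193 with Ad-Cre, and rose by 1.22 (SE 0.14, 2.32-fold, adjusted p = 0.000171). For Hsph1 the replicates lay close together beside the distance between the groups. The 2 Ad-Cre libraries of Hspa1b stood further apart, and its log2 fold change ran from 1.42 to 1.86 with 1 EV library left out, called each time. Hsp90aa1, the inducible form of cytosolic HSP90, had 94.3 and 84.6 CPM with Ad-GFP and 159 and 131 with Ad-Cre, a log2 fold change of 0.69 (SE 0.19, adjusted p = 0.0285). Hspa1a was counted at 29 and 30 reads (1.43 and 1.46 CPM) with Ad-GFP and 69 and 42 reads (3.11 and 1.98 CPM) with Ad-Cre, a log2 fold change of 0.82 (SE 0.25, adjusted p = 0.048). Both calls were lost without the filter on low counts (adjusted p = 0.0564 and 0.104). The call of Hsp90aa1 was lost with any of the 4 EV libraries left out (0.54 to 0.83) and that of Hspa1a with any but EV-Cre replicate 2 (0.45, 0.80 and 0.83). With the 4 EV libraries fitted alone Hspa1b was the only member called, so the call of Hsph1 was lost there too.

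Dnajb1, the J-domain partner that stimulates HSP70, had 56.3 and 42.8 CPM in EV with Ad-GFP and 110 and 74.3 with Ad-Cre. Its log2 fold change was 0.90 (SE 0.30, adjusted p = 0.0689), which did not pass the test, and ran from 0.58 to 1.15 with 1 EV library left out, 0.58 without EV-Cre replicate 1. In both replicates the Ad-Cre library was the higher. In the populations the replicate numbers pair, since samples of the same number deviated together, and replicate 2 of Dnajb1 was below replicate 1 in all 10 groups. With the replicate as a block, Dnajb1 was called (0.89, SE 0.10, adjusted p = 1.76e-06), and 5 of 9 members were called higher, against 12.4% of all genes. Hspa8 had 204 and 174 CPM with Ad-GFP and 232 and 209 with Ad-Cre (log2 fold change 0.22, SE 0.16, adjusted p = 0.421). Hsp90ab1, the most abundant member, had 1640 and 1410 CPM with Ad-GFP and 1590 and 1320 with Ad-Cre (−0.07, SE 0.24, adjusted p = 0.891). Hspd1 and Hspe1, which build the folding chamber of mitochondria, gave 0.05 (SE 0.13, adjusted p = 0.845) and 0.36 (SE 0.27, adjusted p = 0.458). Under the replicate block Hspa8 (0.23, adjusted p = 0.0362) and Hspe1 (0.35, adjusted p = 0.0234) passed on p and stayed uncalled because their changes were below 0.5.

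**Figure D2:**
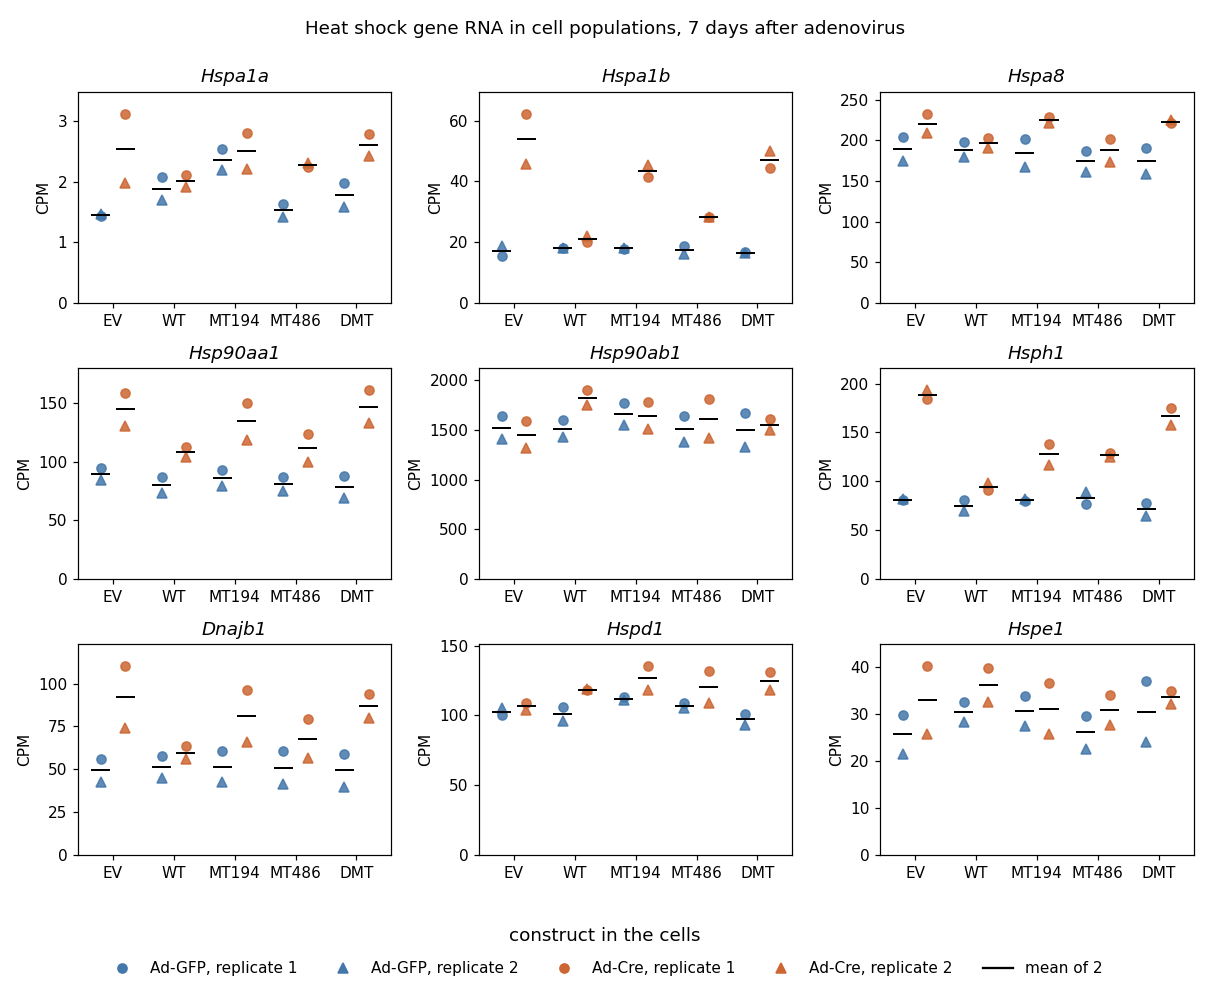
Each panel plots the CPM (linear axis from 0) of a heat shock gene in the 20 population libraries by construct, with Ad-GFP in blue and Ad-Cre in orange, circles for replicate 1, triangles for replicate 2 and a line at the mean of 2. Hspa1b with Ad-Cre lies at 45.7 and 62.1 CPM in EV and at 20 and 21.9 CPM in WT, while all Ad-GFP libraries lie at 15.5 to 18.6 CPM.

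The second question was which form of NELFB keeps the genes at the Ad-GFP level when the endogenous gene is removed. With WT, none of the 9 members was called between Ad-Cre and Ad-GFP, as against 0.0217% of all genes in either direction, with 2 members (and 859 of all genes tested) at an unadjusted p under 0.05 in edgeR and none called by DESeq2. Hspa1b had 18.2 and 18.2 CPM with Ad-GFP and 20 and 21.9 with Ad-Cre (log2 fold change 0.20, SE 0.15, adjusted p = 1). Hsph1 had 80.5 and 69.2 CPM with Ad-GFP and 91.0 and 98.1 with Ad-Cre (0.34, SE 0.14, adjusted p = 0.751), and Hsp90aa1 had 87.1 and 73.1 and then 113 and 104 CPM (0.44, SE 0.19, adjusted p = 0.787). Both Ad-Cre libraries were above both Ad-GFP libraries in 6 of the 9 members (these 3, Hsp90ab1, Hspd1 and Hspe1), and in 18.7% of all genes. Under the block used for EV, Hsp90aa1 had an adjusted p of 0.00316 (0.44, SE 0.07) and stayed uncalled only because its change was below 0.5, and Hsph1 had an adjusted p of 0.0656.

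MT194 gave 2 members called higher, Hspa1b and Hsph1, against 1.88% of all genes. Hspa1b had 17.8 and 18.1 CPM with Ad-GFP and 41.6 and 45.4 with Ad-Cre, a log2 fold change of 1.27 (SE 0.15, adjusted p = 0.000662). Hsph1 had 79.5 and 81.7 CPM and then 138 and 117 CPM, and rose by 0.66 (SE 0.14, adjusted p = 0.0163). With the replicate block, Hsp90aa1 (0.64, SE 0.07, adjusted p = 8.19e-06) and Dnajb1 (0.65, SE 0.10, adjusted p = 9.92e-05) were called too, which made 4 of 9 members against 7.08% of all genes. Hspa1b stayed called with any of the 4 MT194 libraries left out, and Hsph1 lost its call without any but Ad-Cre replicate 2 (0.53, 0.64 and 0.68). Fitted on the 4 MT194 libraries alone, neither gene was called (adjusted p = 0.145 for Hspa1b and 0.472 for Hsph1).

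MT486 also gave 2 members called higher, Hspa1b and Hsph1, against 1.14% of all genes, at smaller values. Hspa1b had 18.6 and 16.1 CPM with Ad-GFP and 28.2 and 28.4 with Ad-Cre (log2 fold change 0.71, SE 0.15, adjusted p = 0.0303). Hsph1 had 77 and 89.3 CPM and then 129 and 125 CPM (0.61, SE 0.14, adjusted p = 0.0382). Both calls were lost when any 1 of the 4 MT486 libraries was left out, with log2 fold changes of 0.60 to 0.82 for Hspa1b and 0.51 to 0.72 for Hsph1, and in the fit of these 4 libraries alone (adjusted p = 0.4 and 0.501). Both were also lost without the filter on low counts. The replicate block kept both calls (adjusted p = 0.00114 and 0.000515), in a fit whose share of all genes called is not given here.

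DMT gave 3 members called higher, against 4.58% of all genes. Hspa1b had 16.6 and 16.4 CPM with Ad-GFP and 44.3 and 49.9 with Ad-Cre (log2 fold change 1.52, SE 0.15, adjusted p = 0.00011). Hsph1 had 77.9 and 64.4 CPM and then 175 and 158 CPM (1.22, SE 0.14, adjusted p = 0.000176), and Hsp90aa1 had 88.3 and 68.8 and then 161 and 133 CPM (0.91, SE 0.19, adjusted p = 0.00834). Hspa1b and Hsph1 stayed called with any of the 4 DMT libraries left out, and Hsp90aa1 lost its call without Ad-Cre replicate 1 (0.76) or Ad-GFP replicate 2 (0.74). With the replicate block Dnajb1 (0.84, SE 0.10, adjusted p = 3.5e-06) and Hspa1a (0.56, SE 0.21, adjusted p = 0.0378) were added, which made 5 of 9 members against 11.2% of all genes. Over the 5 constructs the Ad-GFP libraries of Hspa1b stayed between 15.5 and 18.6 CPM and those of Hsph1 between 64.4 and 89.3 CPM, so the groups stood apart in the Ad-Cre libraries. In bulk RNA a larger amount in every cell and a larger share of cells with the RNA cannot be told apart.

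**Figure D3:**
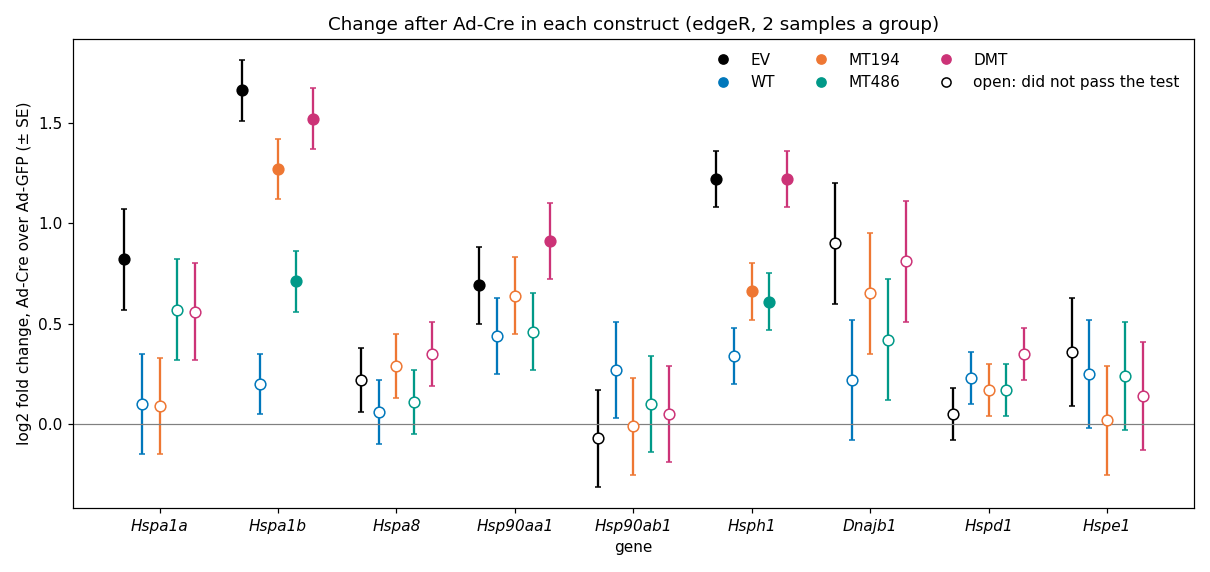
Points give the log2 fold change of Ad-Cre over Ad-GFP with its SE for 9 members in each construct (edgeR, 2 replicates a group), filled where the gene was called and open where it was not. Hspa1b runs from 1.66 in EV and 1.52 in DMT through 1.27 in MT194 and 0.71 in MT486 to 0.20 in WT.

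Whether these changes differ between constructs was tested directly, as the Ad-Cre effect in a construct minus that in EV. For WT, Hspa1b was the only member called, with a difference of −1.46 (SE 0.22, adjusted p = 0.0106), and 0.283% of all genes were called lower. Hsph1 had −0.88 (SE 0.20, adjusted p = 0.072) and Dnajb1 −0.68 (SE 0.42, adjusted p = 0.614), and with the replicate block both were called (adjusted p = 0.000813 and 0.00376), so that 3 of 9 members were called lower against 6.17% of all genes. The Hspa1b difference lost its call when WT-Cre replicate 1, WT-Cre replicate 2 or WT-GFP replicate 1 was left out (largest adjusted p = 0.0756), with values of −1.39 to −1.50.

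For MT486 no member was called, and 0.00724% of all genes were, with 2 members (and 715 of all genes tested) at an unadjusted p under 0.05 in edgeR and Hspa1b called by DESeq2. The difference was −0.95 for Hspa1b (SE 0.22, adjusted p = 0.484) and −0.61 for Hsph1 (SE 0.20, adjusted p = 0.805). With the replicate block both were called lower (adjusted p = 0.0116 and 0.0339), 2 of 9 members against 1.22% of all genes. For MT194 no member was called against 0.00724% of all genes, with 1 member (and 444 of all genes tested) at an unadjusted p under 0.05 in edgeR and none called by DESeq2. The differences were −0.39 for Hspa1b (SE 0.21) and −0.56 for Hsph1 (SE 0.20), each with an adjusted p of 1, and 0.357 and 0.0803 with the replicate block. For DMT no member was called against 0.00724% of all genes, with no member at an unadjusted p under 0.05 in edgeR and none called by DESeq2, and the differences were −0.15 for Hspa1b (SE 0.21) and 0.01 for Hsph1 (SE 0.19). The single gene called in each of the last 3 was Nelfb.

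The constructs were also set beside EV directly after Ad-Cre. These comparisons share the EV-Cre libraries with one another and with the first comparison, so they are not independent of it. In WT, 2 members were called lower, against 3.48% of all genes: Hspa1b by −1.36 (SE 0.15, adjusted p = 0.00042) and Hsph1 by −0.99 (SE 0.14, adjusted p = 0.0015). With the replicate block Dnajb1 was added (−0.60, SE 0.10, adjusted p = 0.000123), which made 3 of 9 members against 11.9% of all genes. The share of reads on no gene also differed, at 11.7% and 15.2% in WT-Cre and 15.5% and 18.8% in EV-Cre. Its part in these differences was not tested. In MT486 the only member called lower was Hspa1b, by −0.93 (SE 0.15, adjusted p = 0.0225), against 0.181% of all genes, a call that was lost when EV-Cre replicate 1 (−0.69) or either MT486-Cre library was left out. With the block Hsph1 was called in MT486 as well (−0.57, SE 0.10, adjusted p = 0.00178), 2 of 9 members against 4.16% of all genes. In MT194 no member was called, against 0.225% of all genes in either direction, with 1 member (and 1326 of all genes tested) at an unadjusted p under 0.05 in edgeR and Hsph1 called by DESeq2. With the block Hsph1 was called lower there (−0.57, SE 0.10, adjusted p = 0.00212), 1 of 9 members against 3.09% of all genes. In DMT no member was called, against 0.00724% of all genes, with none at an unadjusted p under 0.05 in edgeR and none called by DESeq2, and Hspa1b stood at −0.19 (SE 0.15).

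Adding the counts of Hspa1a and Hspa1b into a single row avoids splitting reads between the 2 copies. The summed row had 17 and 20 CPM in EV with Ad-GFP and 65.2 and 47.7 CPM with Ad-Cre, a log2 fold change of 1.61 (SE 0.15, adjusted p = 4.39e-05). In WT, MT194, MT486 and DMT the summed change was 0.19, 1.18, 0.70 and 1.45, and the last 3 were called. Since Hspa1b carried most of the reads, the sum followed it, and it does not recover reads that match both copies.

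A test for any difference among the 10 population groups called Hspa1b (adjusted p = 1.62e-05), Hsph1 (adjusted p = 6.56e-05) and Hsp90aa1 (adjusted p = 0.0101), 3 of 9 members against 13.3% of all genes. With the replicate block 8 of 9 were called against 57.5% of all genes, all but Hsp90ab1. The step between the replicates was itself part of the data. Replicate 2 against replicate 1, over all 10 groups, called no member at the threshold of 0.5, against 23% of all genes, with 7 members at an unadjusted p under 0.05 in edgeR. Of the 13805 genes tested, 10142 were under that p as well. Dnajb1 had the largest difference, −0.44 (SE 0.04, adjusted p = 9.4e-08), followed by Hspe1 at −0.38 (SE 0.05), Hsp90aa1 at −0.25 (SE 0.03), Hspa1a at −0.23 (SE 0.10) and Hsp90ab1 at −0.22 (SE 0.05). Dnajb1, Hspe1, Hsp90aa1 and Hsp90ab1 were lower in replicate 2 in 10 of 10 groups. Hspa1b and Hsph1, the 2 members with the largest change after Ad-Cre in EV, MT194, MT486 and DMT (not in WT), stood at 0.00 (SE 0.06) and −0.05 (SE 0.05). The share of reads on no gene was 11.7% to 15.8% in replicate 1 and 15.2% to 21.3% in replicate 2, higher in replicate 2 in 9 of 10 groups, and its part in these differences was not tested.

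**Figure D4:**
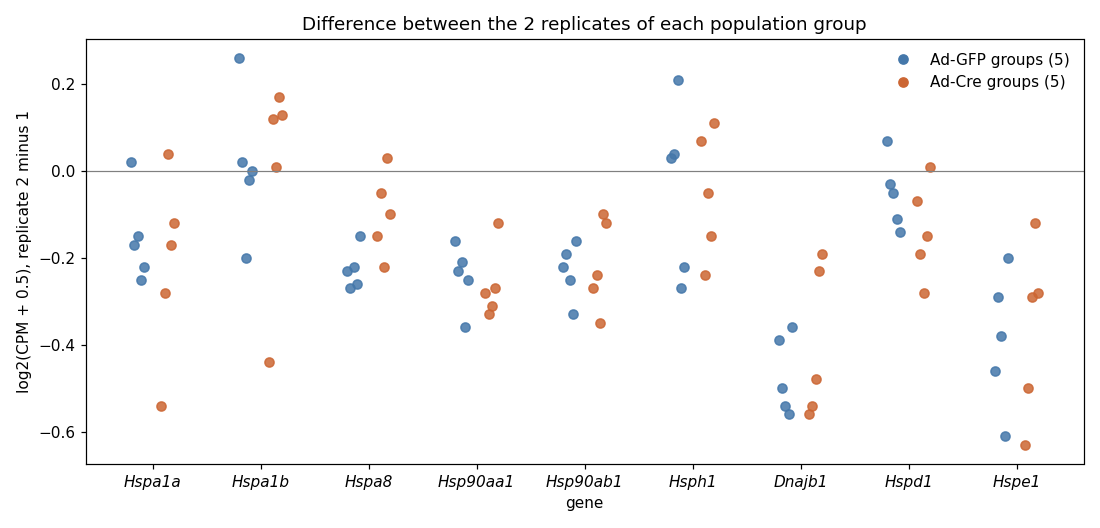
Points give the difference between replicate 2 and replicate 1 of each population group in log2(CPM + 0.5), for 9 members, with the 5 Ad-GFP groups in blue and the 5 Ad-Cre groups in orange. All 10 points of Dnajb1, Hspe1, Hsp90aa1 and Hsp90ab1 lie below 0, and those of Hspa1b and Hsph1 lie on both sides.

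Other genes of the heat shock system were read from fixed lists, beside the 5.84% of all genes called higher in EV and the 5.94% called lower. All list calls in this paragraph and the next are from edgeR without the replicate block. With the block 12.4% of all genes were called higher in EV, so a missing call holds for the fit without it only. Among 6 heat shock factors and regulators, only Ier5, an immediate early gene whose protein binds HSF1, was called in EV, where it had 70.6 and 68.6 CPM with Ad-GFP and 179 and 196 with Ad-Cre (log2 fold change 1.43, SE 0.13, adjusted p = 3.53e-05). Ier5 was called in MT194 (1.02), MT486 (1.15) and DMT (1.63) as well, and its Ad-Cre effect was smaller in WT than in EV by a difference of −0.98 (SE 0.18, adjusted p = 0.0299). Its levels with Ad-Cre were 92.6 and 92.6 CPM in WT, 150 and 145 in MT194, 141 and 149 in MT486 and 195 and 190 in DMT. Hsf2bp was called higher in DMT (1.20, SE 0.35) and lower in MT486-Cre than in EV-Cre (−1.99, SE 0.39), at levels of at most 0.994 CPM. Hsf1, Hsf2, Hsf4 and Hsbp1 were not called in any comparison between population groups in this fit.

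Of 22 other J-domain genes 1 was called higher in EV and 1 lower, which is near the shares of all genes given above. Dnaja4, a J-domain gene, had 6.19 and 6.78 CPM with Ad-GFP and 13.5 and 10.8 with Ad-Cre (log2 fold change 0.90, SE 0.17, adjusted p = 0.00454), and was called in MT194 (0.76) and DMT (0.95) too. Dnajc13, a J-domain protein of endosomes, fell by 0.59 (SE 0.16, adjusted p = 0.0295). Among 21 cochaperones, Pih1d1 was the only one called in EV (−0.65, SE 0.16, adjusted p = 0.0169), again near the share of all genes, and it was called in DMT as well (−0.60). Among 19 genes of the endoplasmic reticulum chaperones and the unfolded protein response, only Ddit3, a transcription factor of that response, was called in EV (0.67, SE 0.20, adjusted p = 0.0487). Of 11 other HSP70 and HSP110 genes, 2 other HSP90 genes, 7 other small heat shock genes (6 tested), 11 mitochondrial chaperones and proteases, 8 subunits of the cytosolic chaperonin TRiC and 6 prefoldin subunits, none was called in EV by edgeR without the replicate block. In DMT 1 of the 11 other HSP70 and HSP110 genes was called higher, against 4.58% of all genes. It was Hspa4l, another HSP110 gene (0.76, SE 0.21, adjusted p = 0.0358). In WT-Cre against EV-Cre, 3.48% of all genes were called lower and 3.89% higher. There Ier5 (−1.02) was lower, 1 of 6 factors and regulators, as were Dnaja4 (−0.68) and Dnajb9 (−1.58), 2 of 22 other J-domain genes. Dnajb9, a J-domain protein of the endoplasmic reticulum, was also the 1 gene called of the 19 in that list. Pih1d1 (0.60) was higher, 1 of 21 cochaperones. The last 2 counts are near the shares of all genes.

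The genes with the pattern most like Hsph1 over the 20 population libraries, among the 9439 genes that averaged 10 CPM or more, were Plk2 (Pearson r = 0.982 on log2(CPM + 0.5)), Myc (0.980) and Rrp12 (0.978). For Hspa1b they were Apln (0.973), Inafm2 (0.966) and Ccdc137 (0.963), for Hsp90aa1 Zbtb38 (0.975), Gsto1 (0.970) and Prmt7 (0.969), and for Dnajb1 Ubqln1 (0.983), Gtpbp1 (0.983) and Carhsp1 (0.977). Likeness at this level was not rare: 175 genes exceeded an r of 0.9 with Hsph1, 110 with Hspa1b, 224 with Hsp90aa1 and 295 with Dnajb1, and 10 with Hspd1. The libraries share virus, experiment and construct, so these values describe the order of the genes only.

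The clones asked what cells look like that live on with a given form of NELFB. Among the comparisons of clones described here, edgeR on all libraries called members only between MT194 and the WT label, where 1 of 9 members was called higher, against 1.28% of all 13223 genes tested, and 3 were called lower, against 1.63%. Hspa1b had 57.4, 49.2 and 49.6 CPM in the MT194 clones and 20.7, 15.9 and 26.2 CPM in the libraries labelled WT clone 1 to 3 (log2 fold change 1.32, SE 0.32, adjusted p = 0.0487). The 3 MT194 clones were all above the 3 libraries labelled WT. The summed fibroblast markers moved between the same libraries, with 12000, 10500 and 7730 CPM in those labelled WT, the lowest of the 15 clones, and 13100, 26400 and 14600 CPM in MT194, and their part in the differences was not tested.

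The members called lower in MT194 were Hspa8, Hsp90ab1 and Hspd1. Hspa8 had 242, 268 and 280 CPM in MT194 and 393, 533 and 395 in the libraries labelled WT (−0.74, SE 0.16, adjusted p = 0.0368). Hsp90ab1 had 2820, 2560 and 3250 CPM in MT194 and 4510, 5770 and 4680 in the libraries labelled WT (−0.79, SE 0.20, adjusted p = 0.0488). Hspd1 had 210, 151 and 213 CPM in MT194 and 363, 343 and 282 in the libraries labelled WT (−0.78, SE 0.19, adjusted p = 0.0488). Hsph1, with 152, 150 and 142 CPM against 196, 187 and 266, was at −0.55 (SE 0.15, adjusted p = 0.0708). Hsp90aa1 was at −0.63 (SE 0.21, adjusted p = 0.105) and Hspe1 at −0.38 (SE 0.23, adjusted p = 0.355). The groups did not overlap in 6 of 9 members (the 4 called, Hsph1 and Hsp90aa1), and in 33.6% of all genes. Of the 4 calls, at most 1 was kept when any of the 6 libraries was left out. Without both low-Nelfb libraries labelled WT the log2 fold changes were 1.70 for Hspa1b, −1.03 for Hspa8, −1.02 for Hsp90ab1 and −0.85 for Hspd1 against the single remaining WT clone.

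**Figure D5:**
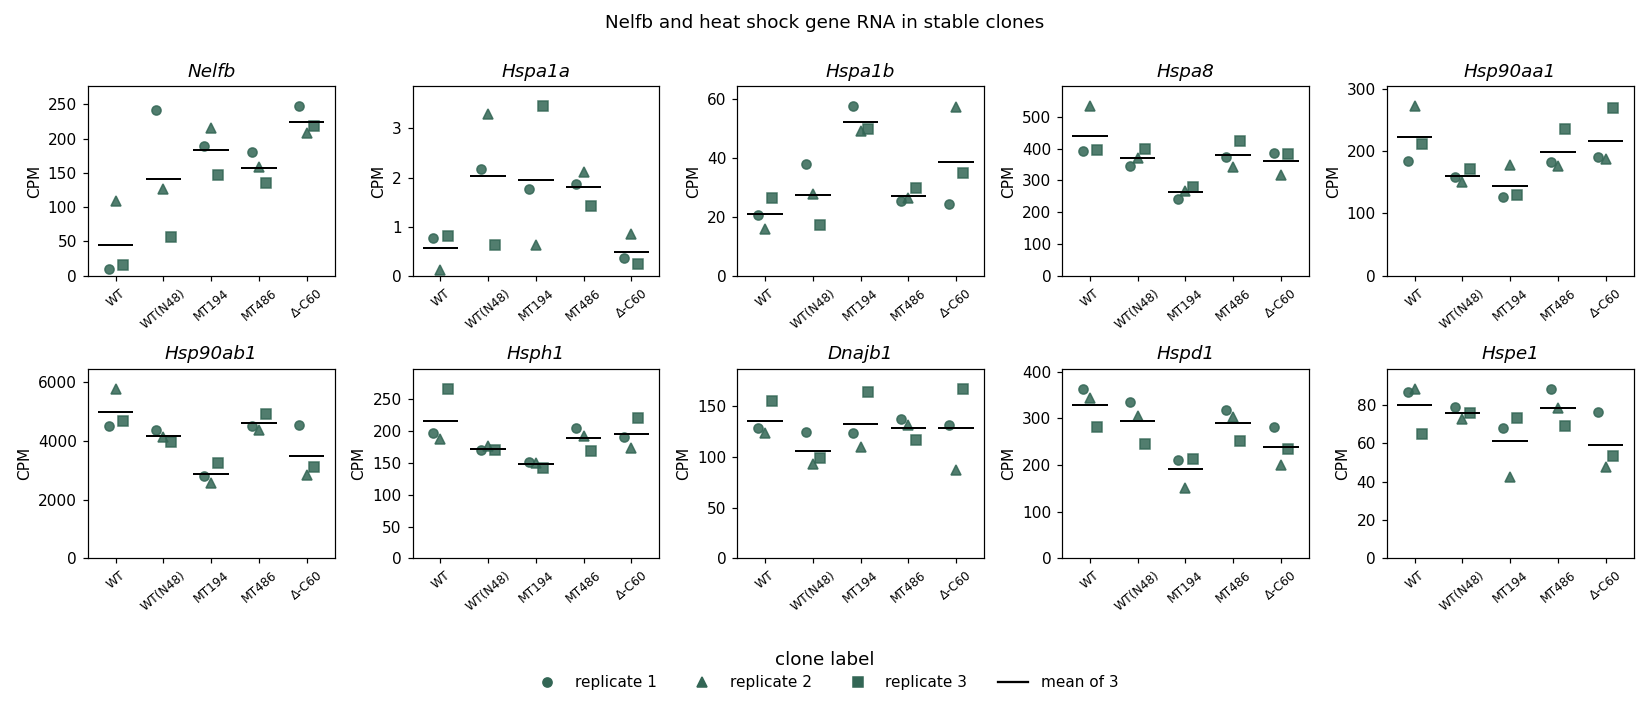
Each panel plots CPM (linear axis from 0) of Nelfb or a heat shock gene in the 15 clone libraries by label, with a symbol for each replicate and a line at the mean of 3. The 2 libraries labelled WT with 10.3 and 15.5 CPM of Nelfb lie at the bottom of the first panel, and the MT194 clones lie highest in the mean of Hspa1b and lowest in that of Hspa8 and Hsp90ab1.

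Against the WT(N48) clones no member was called in MT194, against 5.82% of all genes, with 4 members at an unadjusted p under 0.05 in edgeR and Hspa1b, Hsp90ab1 and Hspd1 called by DESeq2. Of the 13223 genes tested, 3407 were under that unadjusted p. The log2 fold changes of Hspa1b, Hspa8 and Hsp90ab1 were 0.92 (SE 0.32), −0.49 (SE 0.16) and −0.53 (SE 0.19), measured on the same 3 MT194 clones as the comparison with WT. WT(N48) against WT called no member, against 2.1% of all genes, with 2 members (and 2775 of all genes tested) at an unadjusted p under 0.05 in edgeR and none called by DESeq2. MT486 called no member against WT, where 0% of all genes were called by edgeR (1176 at an unadjusted p under 0.05), or against WT(N48), where 0.287% were (1991 at that p), with no member at an unadjusted p under 0.05 and none called by DESeq2 in either. The counts of MT486 clones 1 and 2 differed less than those of any other 2 clones of the same label. Their chi-square per degree of freedom over genes was 5.06, against 32.4 to 349 in the other pairs. Whether these 2 are separate clones was not settled here, so the MT486 group could hold fewer than 3 independent clones. Against the 3 libraries labelled WT, Hspa1b stood at 0.39 (SE 0.32) in WT(N48) and 0.37 (SE 0.32) in MT486, and Hspa8 at −0.25 (SE 0.16) and −0.21 (SE 0.16). Without the low-Nelfb libraries, only WT clone 2 remained, which had the lowest Hspa1b and the highest Hspa8 of the 3, and the values became 0.77 (SE 0.48) in both for Hspa1b and −0.54 (SE 0.21) and −0.49 (SE 0.21) for Hspa8.

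Δ-C60, whose NELFB lacks its C-terminal end, called no member against WT, where 8.33% of all genes were called (1102 genes, and 100 without WT clone 1, 142 without WT clone 3 and 362 without WT clone 2), with 3 members (and 3587 of all genes tested) at an unadjusted p under 0.05 in edgeR and Hsp90ab1 called by DESeq2. Without Δ-C60 clone 1, Hspa1b and Hsp90ab1 were called against WT. Against the 3 libraries labelled WT, Hspa1b stood at 0.89 (SE 0.32), Hspa8 at −0.28 (SE 0.16) and Hsp90ab1 at −0.52 (SE 0.19), and against WT clone 2 alone at 1.25 (SE 0.49), −0.59 (SE 0.21) and −0.75 (SE 0.28). Against WT(N48), made in the same vector, it also called none, where 0% of all genes were called by edgeR. There 1540 genes were at an unadjusted p under 0.05 in edgeR, with 1 member, Hspa1a, among them. DESeq2 called 230 genes, none of them members. The Δ-C60 clones varied among themselves: Hspa1b had 24.3, 57.1 and 34.7 CPM and Hsp90ab1 had 4540, 2830 and 3100 CPM. Hspa1a had 0.361, 0.861 and 0.247 CPM in Δ-C60 and 2.18, 3.30 and 0.631 CPM in WT(N48), from 5 to 66 reads a library. A test for any difference among the 5 clone groups called no member, against 11.6% of all genes, with 6 members at an unadjusted p under 0.05 in edgeR and Hspa1b, Hspa8, Hsp90ab1 and Hspd1 called by DESeq2. Of the 13223 genes tested, 4566 were under that unadjusted p.

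In MT194 against WT clones other chaperone genes were called with the members, beside 1.28% of all genes called higher and 1.63% called lower. These 384 calls fell to 174 without the filter on low counts, 37 without WT clone 1, 3 without WT clone 2, 97 without MT194 clone 2, and 0 without WT clone 3 or MT194 clone 1, so none of the calls named next holds in every such fit. Of 8 TRiC subunits 3 were lower, Cct7 (−0.78, SE 0.19), Cct6a (−0.64, SE 0.16) and Cct4 (−0.54, SE 0.12), and Cct7 had 411, 340 and 480 CPM in MT194 against 701, 669 and 744 in the libraries labelled WT. Of 6 prefoldin subunits Vbp1 was lower (−1.03, SE 0.19, adjusted p = 0.0234), and it was lower against WT(N48) too (−0.87, SE 0.19, adjusted p = 0.024). Fkbp4, an HSP90 cochaperone of steroid receptors, was lower at −1.02 (SE 0.22, adjusted p = 0.0371). Of 22 other J-domain genes Dnajc2 was lower (−0.87, SE 0.13, adjusted p = 0.014), and Dnajb9 (1.02, SE 0.24) and Dnajb2 (0.65, SE 0.16) were higher. Cryab, a small heat shock gene, had 41.2, 37.9 and 30.1 CPM in MT194, 93.0, 80.2 and 73.0 in WT(N48) and 35.8, 29.2 and 45.9 in the libraries labelled WT, and was called in MT194 against WT(N48) (−1.17, SE 0.20, adjusted p = 0.00966) and in WT(N48) against WT (1.15, SE 0.20, adjusted p = 0.0179). Against WT(N48), where 3.26% of all genes were called lower and 2.56% higher, MT194 was also lower in 2 of 8 TRiC subunits, 2 of 6 prefoldin subunits, 1 of 22 other J-domain genes and 2 of 11 other HSP70 and HSP110 genes, namely, beside Vbp1, in Cct8 (−0.79, SE 0.19), Cct5 (−0.61, SE 0.15), Pfdn1 (−0.81, SE 0.21), Dnajc21 (−0.93, SE 0.25), Hspa4l (−1.92, SE 0.50) and Hspa9, the mitochondrial HSP70 (−0.97, SE 0.23). The 770 calls of that comparison ran from 57 to 1393 with 1 clone left out, 57 without WT(N48) clone 1. In Δ-C60 against WT, where 5.11% of all genes were called higher and 3.22% lower, 4 of 22 other J-domain genes, 1 of 6 factors and regulators and 1 of 5 small heat shock genes tested were higher, and 2 of 21 cochaperones were lower. Dnajb4 (1.15, SE 0.26), Dnajb9 (1.06, SE 0.24), Dnajb12 (0.98, SE 0.24), Dnajc5 (0.65, SE 0.17), Hsf2 (0.84, SE 0.23) and Cryab (0.74, SE 0.19) were higher, and Fkbp4 (−0.89, SE 0.22) and Bag4 (−0.81, SE 0.24), an HSP70 cochaperone, were lower. These comparisons with WT rest on the same 3 libraries labelled WT as those of the members.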

How the data were processed

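RNA-seq counts of 20 population and 15 clone libraries were used. The authors made the deposited counts from poly(A) libraries with single 50-base reads, by aligning with bowtie2 to mm10, skipping alignments with a mapping quality under 30, and counting reads on genes with HTSeq (versions not given in the sources used here). Reads on no gene made up 9.14% to 21.3% of reads and were left out. All tests ran on these counts in edgeR 4.0.16 under R 4.3.3 (filterByExpr, TMM, robust quasi-likelihood fit, 1 mean per group), separately for populations and clones, with Benjamini-Hochberg adjustment over 13805 and 13223 genes. The SE is the fold change over the square root of F. A gene was called at adjusted p below 0.05 when its log2 fold change exceeded 0.5 in size. The labels call the replicates biological without naming separate cultures, and the study describes its population RNA-seq as independent experiments. The labels do not tie the replicate numbers to these experiments. P-values measure the spread between these samples. Population replicates were checked for pairing: deviations of same-numbered samples correlated over 0.1 in 45 of 45 pairs of groups (0.517 to 0.824), and in 4 of 30 in the clones. Members and lists were chosen with earlier results of these data known. Named genes were the members, Nelf genes, all genes called in a list with up to 5 calls (else the 4 largest with at least 50 counts) and the 3 genes most like a member. Alternatives were DESeq2 1.42.0, its size factors, no filter, a threshold of 1, the replicate block, the compared libraries alone, Hspa1a and Hspa1b summed, and left-out libraries. Calls of members by DESeq2 are mostly given without its share of all genes. On simulated data DESeq2 made more false calls than edgeR, and the pass condition of that check was limited to edgeR after this was seen. The simulated counts used means and spreads fitted by edgeR and had no replicate pairing. They do not settle which test is nearer the truth in the real libraries.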

Additional observations from a re-analysis of the deposited data

Results flagged for a closer look

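The effect of Ad-Cre differed between WT and EV populations for Hspa1b, by −1.46 on the log2 scale, and for Ier5, by −0.98, in a direct test of the difference. For Nelfb the Ad-Cre effect differed from that in EV in all 4 constructs, by 2.27 in WT, 3.38 in MT194, 3.18 in MT486 and 4.15 in DMT, where reads of the construct are counted with those of the gene.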

How the results depend on the processing

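Values here are members called, out of 9 tested. The share of all genes called under each of these settings is mostly not given, so a count here was not set beside its background. With a log2 threshold of 1 in place of 0.5, EV (4 called) kept 2, MT194 (2) kept 1, MT486 (2) kept 0, WT-Cre against EV-Cre (2) kept 1, MT486-Cre against EV-Cre (1) kept 0 and MT194 against WT clones (4) kept 1. Without the filter on low counts EV had 2, MT194 1, MT486 0 and MT194 against WT clones 0. With only the 4 libraries of a construct, EV had 1 (Hspa1b), MT194 0 and MT486 0. DESeq2 gave 1 for Δ-C60 against WT (0 by edgeR), 3 for MT194 against WT(N48) (0), 4 for any difference among clones (0), 1 for MT194-Cre against EV-Cre (0), 2 for MT486-Cre against EV-Cre (1), 2 for the WT difference from EV (1), 1 for the MT486 difference from EV (0) and 5 for any difference among populations (3). DESeq2 made more false calls than edgeR on simulated data, which were drawn from an edgeR fit without replicate pairing and do not settle which count is nearer the truth. Without both low-Nelfb libraries labelled WT, MT194 against WT clones had 0. Apart from MT194 against WT clones under the last setting, where fewer samples remained, the cause was not tested.

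With the replicate block, which the populations support, MT194 had 4, DMT 5, MT194-Cre against EV-Cre 1, MT486-Cre against EV-Cre 2, the WT difference from EV 3, the MT486 difference from EV 2, and any difference among populations 8. In the clones the samples share only a number: 4 of 30 pairs of groups correlated over 0.1 (median −0.014), and the block left 0 members in MT194 against WT, where the count of all genes called went from 384 to 52. The block changed no other member count by more than 1.5 times.

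With 1 library left out, the count ran from 2 to 3 in EV, 1 to 2 in MT194, 0 to 0 in MT486, 2 to 3 in DMT, 0 to 1 in MT486-Cre against EV-Cre, 0 to 1 in the WT difference from EV, 0 to 2 in Δ-C60 against WT, 0 to 1 in MT194 against WT, 0 to 1 in MT194 against WT(N48) and 0 to 4 among the clones. A population group left with 1 library was assumed to vary like the other groups. In EV the uncalled Hsp90ab1 changed sign (−0.22 to 0.06) and the uncalled Hspe1 ran from 0 to 0.64. Hspa1b in EV stayed called under every alternative (1.42 to 1.86), and Hsph1 under all but the fit of 4 libraries alone (adjusted p = 0.0522).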

Other observations

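Chaperones of the endoplasmic reticulum, the compartment in which secreted proteins fold, differed between the replicates of the populations. Of 19 genes of this list, 17 were called higher in replicate 2 than in replicate 1 over the 10 groups, against 19% of all genes, with a median log2 difference of 0.63 against −0.01 over all genes tested. Hspa5, the HSP70 of this compartment, had 1360 to 1760 CPM in replicate 1 and 1860 to 3190 CPM in replicate 2 (0.67, SE 0.06, edgeR adjusted p = 2.15e-08), so the replicates did not overlap. Serpinh1, the collagen chaperone HSP47, had the largest difference (0.71, SE 0.07), and Pdia6, a disulfide isomerase, stood at 0.67 (SE 0.05). The summed fibroblast markers, led by the secreted protein gene Fn1, were higher in replicate 2 in the same 10 groups. The share of reads on no gene was higher in replicate 2 in 9 of these groups. The part of either in this difference was not tested. The other lists lay on both sides, and some share genes with the first. Of 2 other HSP90 genes (median 0.34) Hsp90b1 was called higher, of 11 other HSP70 and HSP110 genes (0.00) Hspa5, Hyou1 and Hspa13 were, and of 22 other J-domain genes (−0.18) Dnajb9, Dnajb11, Dnajc3, Dnajc1 and Dnajc10 were. Hsp90b1, Hspa5, Hyou1, Dnajb9, Dnajb11 and Dnajc3 are also in the list of the endoplasmic reticulum. Called lower, beside 4.03% of all genes, were Bag1 and Cacybp of 21 cochaperones (−0.35), Vbp1 and Pfdn5 of 6 prefoldin subunits (−0.44) and Hspb6 of 6 other small heat shock genes tested (−0.36). None was called, in edgeR at these thresholds, of the 9 heat shock members (−0.22), 8 TRiC subunits (−0.32), 11 mitochondrial genes (−0.10) or 6 factors and regulators (−0.07).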
